A study of Rattus norvegicus with 9 samples.

Results

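Amino acid transporter genes were compared between adipose-derived mesenchymal stem cells (ASCs) of 3 fat depots of the rat. The genes were taken by symbol alone, as every gene of the solute carrier families SLC1, SLC3, SLC6, SLC7, SLC36, SLC38, and SLC43 in the count table, which gave 61 of 35362 genes. Of these 61 genes, 34 passed the filter on low counts and were tested, among 14770 genes tested in all. The cells came from subcutaneous fat of the groin (SASCs), perirenal fat (PASCs), and epididymal fat (EASCs) of male Sprague Dawley rats aged 6 weeks, which carried no transgene and received no treatment that the methods describe. Rats of all groups were fasted before isolation, and adherent cells were grown in high glucose medium with fetal bovine serum and collected at passage 3. RNA-Seq was done on 3 samples of each group. The methods describe 6 rats and 6 wells in each group, and do not say whether the 3 samples came from separate rats, so p-values here measure the spread between these samples, which may be technical.

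Amino acids cross the plasma membrane through families of carriers with overlapping substrates. Exchangers of the SLC7 light chain group pair with a heavy chain of the SLC3 family, and swap an amino acid inside the cell for another outside. Sodium-coupled carriers of the SLC38 and SLC1 families load the cell with glutamine, alanine, or glutamate, cationic carriers of the SLC7 family bring in arginine, lysine, and ornithine, and SLC6 carriers take up glycine, proline, taurine, creatine, and neurotransmitters. When amino acids are scarce, the transcription factor ATF4 induces several of these carriers together with enzymes of serine, asparagine, and glutathione metabolism. In adipose cells, amino acids serve protein and lipid synthesis, and creatine and taurine are also taken up.

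The 250 bases upstream of the transcription start were searched for the letters TGATGNAA, the core of the element that ATF4 and its C/EBP partners bind, on both strands. RefSeq promoters of the rat assembly GRCr8 matched 45 of the 61 members by symbol, and the other 16 members were not searched. The letters were found in 3 of 49 member windows (6.12%), against 1139 of 33465 windows of all genes (3.4%) and 5 of 30 windows of a list of amino acid response genes (16.7%). All 3 members with a match are printed, and capitals mark the matched letters. Slc38a1 and Slc7a1 were upregulated in both groups against SASCs, while Slc1a4 differed by less than 2-fold. Slc7a5 and Slc6a9, also upregulated in both groups, were searched and had no match. The match lay 142 to 135 bases upstream of the start of Slc38a1 (chr7:129681402-129681651, minus strand), 30 to 23 bases upstream of that of Slc7a1 (chr12:11664238-11664487, plus strand), and 235 to 228 bases upstream of that of Slc1a4 (chr14:98761563-98761812, minus strand), where it is read on the other strand.
Slc38a1: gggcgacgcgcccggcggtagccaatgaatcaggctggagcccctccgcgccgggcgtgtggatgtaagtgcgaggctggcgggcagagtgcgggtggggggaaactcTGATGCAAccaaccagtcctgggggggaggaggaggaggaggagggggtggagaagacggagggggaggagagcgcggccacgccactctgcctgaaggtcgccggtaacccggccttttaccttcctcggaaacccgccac
Slc7a1: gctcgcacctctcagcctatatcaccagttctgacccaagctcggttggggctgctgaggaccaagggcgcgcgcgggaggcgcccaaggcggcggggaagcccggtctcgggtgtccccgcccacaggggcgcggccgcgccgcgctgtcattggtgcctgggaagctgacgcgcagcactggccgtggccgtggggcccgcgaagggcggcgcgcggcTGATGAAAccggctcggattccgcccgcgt
Slc1a4: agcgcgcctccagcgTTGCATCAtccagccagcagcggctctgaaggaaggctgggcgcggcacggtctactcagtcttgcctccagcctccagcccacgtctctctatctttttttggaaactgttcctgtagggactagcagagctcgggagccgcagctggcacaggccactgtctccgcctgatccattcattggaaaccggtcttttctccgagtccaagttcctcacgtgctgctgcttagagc
A match is a description of the letters, and binding was not measured.

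The samples held 17591916 to 30299032 counts. Genes of ribosomal RNA took between 10.4% and 15.5% of a library in SASCs, between 22.4% and 32.9% in PASCs, and between 15.9% and 40.3% in EASCs, and their part in the results was not tested beyond a repeat without them. Markers of adipose stromal cells summed to 22940 to 29309 CPM (counts scaled to a common library size) over all 9 samples. The largest part of this sum was Col1a1, at 10697.5 CPM in SASCs, 19133.6 in PASCs, and 20332 in EASCs. Of these 11, Pdgfra, Dcn, and Lum were downregulated in EASCs and in PASCs against SASCs, and Eng and Itgb1 were upregulated in EASCs. Dcn stood at 6880, 218, and 301 CPM and Lum at 3234, 93.1, and 74.1 in SASCs, PASCs, and EASCs. Markers of other cells moved with the groups as well. The 7 markers of smooth muscle cells and pericytes summed to 142 to 150 CPM in SASCs, while PASCs had 1157 to 1190 and EASCs 2993 to 3023. Most of this sum was Acta2 in PASCs and EASCs (911 and 2200 CPM), while SASCs had 55.7 CPM of Acta2 beside 48.0 of Notch3. Of its pericyte markers, Rgs5 and Notch3 were downregulated and Cspg4 was upregulated in both groups against SASCs. The 11 leukocyte markers summed to 51.0 to 56.1, 123 to 129, and 180 to 194 CPM in the same order, with Cd3e at 0. The 10 mesothelial markers summed to 34.2 to 34.7, 105 to 111, and 136 to 148 CPM, with none at 0 in all samples. Against this rise, Cldn15 was downregulated in both groups, and Krt19 had 14 counts in all samples together and was not tested. The 7 adipocyte markers summed to 97.5 to 107, 22.3 to 24.0, and 11.5 to 12.6 CPM. The 8 endothelial markers summed to 55.1 to 56.4, 13.9 to 17.1, and 37.9 to 41.1 CPM. They did not move together. Tek was upregulated in both groups against SASCs, 6 of the 7 tested were downregulated in PASCs, and Kdr alone was downregulated in EASCs. The 7 Schwann cell and melanocyte markers summed to 41.2 to 46.9, 9.83 to 12.3, and 3.69 to 3.98 CPM, with Tyr at 0. The 5 skeletal muscle markers summed to 2.59 to 2.85, 15.8 to 16.5, and 11.9 to 14.9 CPM, with Myog and Pax7 at 0. Nearly all of this sum was Myh1 in PASCs and EASCs (15.7 and 13.5 CPM), as was most of it in SASCs (2.28 CPM). Myod1 had 0 counts in all EASCs. The 8 markers of kidney and epididymis epithelium summed to at most 1.51 CPM. Some markers, such as Rgs5, Cidec, and Aif1, passed the filter on low counts only through groups in which they were higher. Their calls against the low groups are descriptions. The part of any of these cells in the transporter results was not tested. In bulk RNA, fewer cells of a type and less RNA per cell cannot be told apart.

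To ask which carriers differ between depots, each pair of groups was compared with edgeR, and a gene was called a differentially expressed gene (DEG) when it changed over 2-fold at an adjusted p below 0.05. In EASCs compared with SASCs, 8 of the 34 tested members were upregulated (23.5%) and 8 were downregulated (23.5%), while 13.6% of all genes tested were upregulated and 14.2% were downregulated. In PASCs compared with SASCs, 8 members were upregulated (23.5%) and 11 were downregulated (32.4%), beside 12% and 14.9% of all genes. At any fold, 26 members (76.5%) passed the adjusted p in EASCs and 29 (85.3%) in PASCs, beside 69.7% and 69.2% of all genes. The median absolute log2 fold change of the members was 0.90 in EASCs and 1.07 in PASCs, and that of all genes was 0.54 in each. The signed median of the members was 0.090 and -0.076, and that of all genes 0.0061 and -0.0082. Without TMM scaling, which moved the median of all genes to -0.39 in EASCs and -0.33 in PASCs, 5 members were upregulated and 12 were downregulated in EASCs, and 6 and 13 in PASCs. The split of all genes then became 1349 upregulated and 3426 downregulated in EASCs, from 2002 and 2103, and 1262 and 3169 in PASCs, from 1779 and 2200. The filter asked for 3 samples at 0.403 CPM or more on total counts. Slc1a1, Slc1a7, Slc7a3, Slc7a10, Slc6a4, Slc6a7, and Slc38a4 passed it only through groups in which they were higher than the group or groups in which they were low. Their differences from those groups are therefore descriptions, given with no p, and are among the counts above. Apart from them, 6 members were upregulated and 6 downregulated of 29 in EASCs, and 6 and 7 of 28 in PASCs. The comparisons with SASCs share the same 3 SASC samples.

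**Figure D1:**
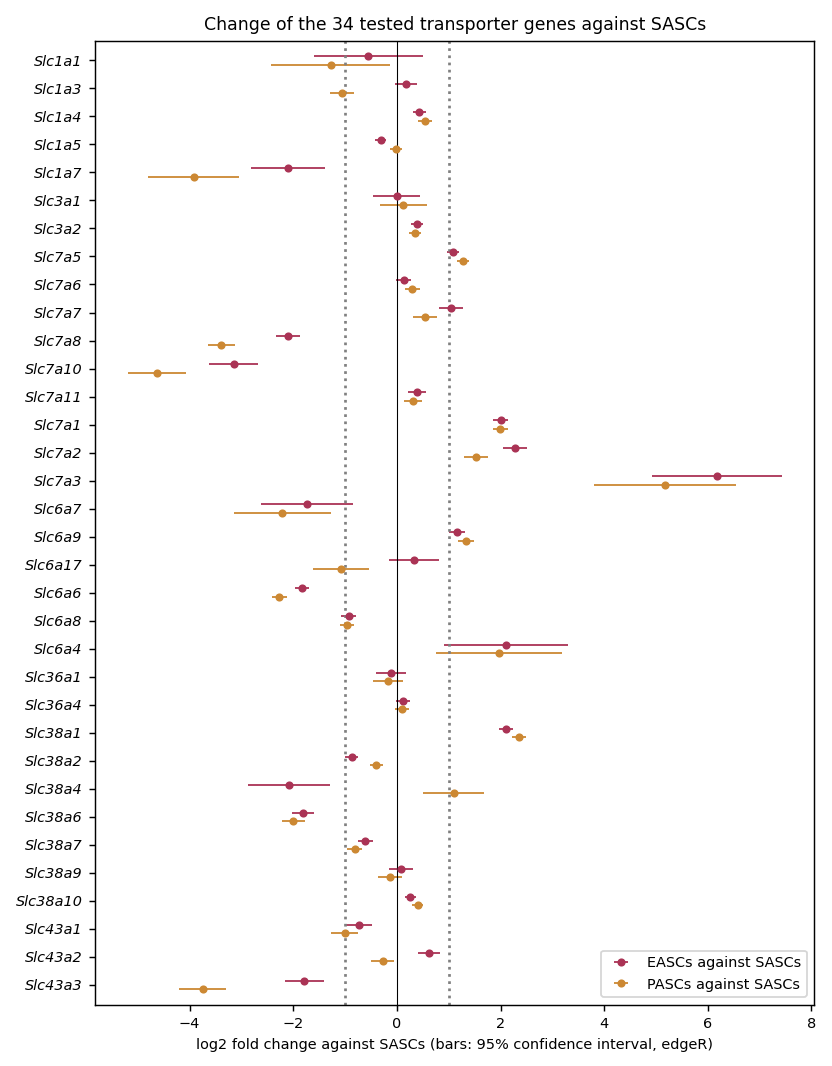
Log2 fold change of the 34 tested amino acid transporter genes in EASCs and PASCs, each against SASCs, in order of their roles, with 95% confidence intervals from edgeR (bars) and the 2-fold thresholds (dotted lines). The cationic carriers Slc7a1, Slc7a2, and Slc7a3 and the sodium-coupled carrier Slc38a1 lie to the right, while Slc7a8, Slc7a10, Slc43a3, and Slc6a6 lie to the left. The points of Slc3a2 in EASCs and Slc7a11 in PASCs turn to just below 0 without TMM scaling, and the position of Slc7a3 depends on the 2 counts it had in SASCs.

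To compare levels between genes, counts were also divided by gene length and given as RPKM, or CPM for each kilobase of the gene. The summed level of all members was 492 ± 1.20 RPKM in SASCs, 526 ± 4.52 in PASCs, and 489 ± 13.1 in EASCs (SD, n = 3). Slc38a2, the glutamine and alanine carrier SNAT2, had the highest level in SASCs, at 124 ± 3.22 RPKM, followed by the heavy chain Slc3a2 at 91.4 ± 4.25 and the glutamine exchanger Slc1a5 at 44.6 ± 1.00. In the other groups Slc3a2 stood above Slc38a2, at 116 ± 6.83 against 94.3 ± 8.65 RPKM in PASCs and 120 ± 3.37 against 67.7 ± 1.86 in EASCs. Slc38a2 made up 25.2% ± 0.716 of the summed level in SASCs, 17.9% ± 1.59 in PASCs, and 13.8% ± 0.0884 in EASCs. The share of Slc7a5, the large neutral amino acid exchanger LAT1, was 5.86% ± 0.249 in SASCs, 13.2% ± 0.0725 in PASCs, and 12.5% ± 0.332 in EASCs. These shares do not depend on the scaling between samples, but the sums do. On total counts without TMM scaling, the summed level was 583 ± 20.4 FPKM in SASCs, 498 ± 37.4 in PASCs, and 440 ± 75.3 in EASCs, which is another order.

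**Figure D2:**
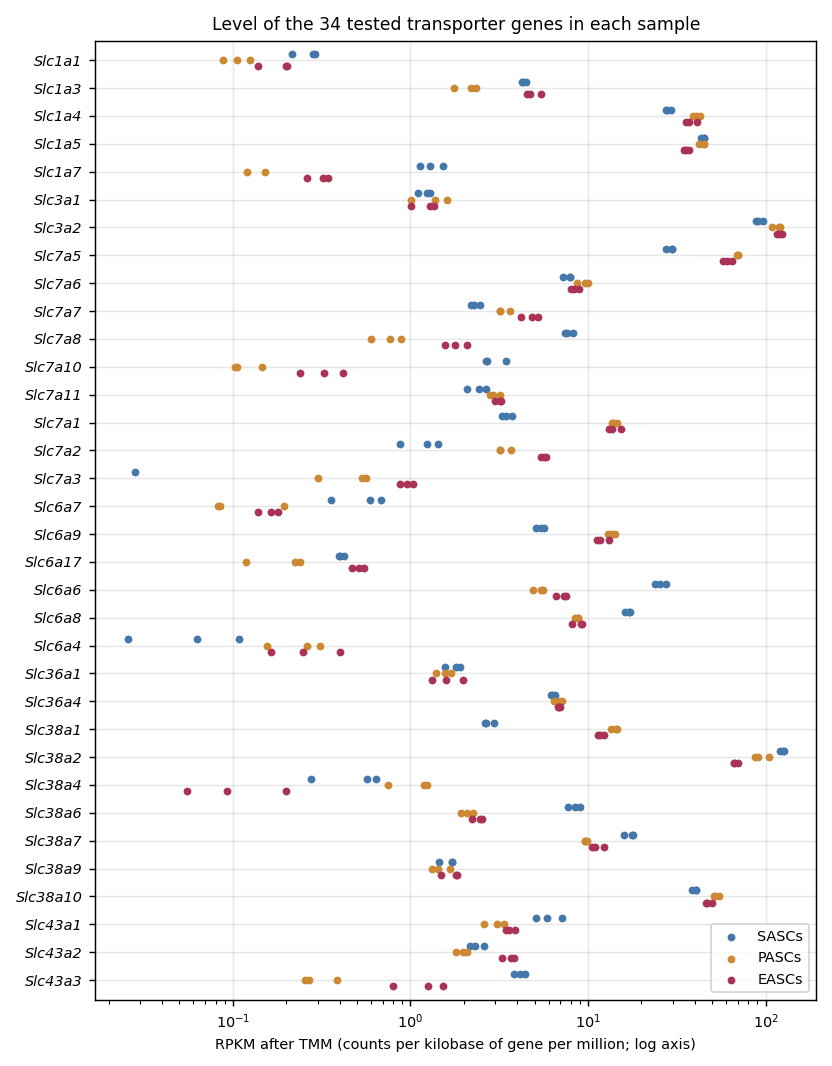
Level of each tested amino acid transporter gene in each of the 9 samples, in RPKM on a log axis, with 3 points for each group. Levels span from about 0.03 to over 100 RPKM, Slc38a2 and Slc3a2 stand highest, and samples of a group lie close together for all but the lowest genes. Samples with 0 counts are not drawn (Slc7a3 in SASCs 2 and 3, and Slc1a7 in PASCs 1).

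The light chains that pair with a heavy chain differed in their shares. Slc7a5 carries leucine and other large neutral amino acids, and stood at 102, 102, and 94.7 CPM in SASCs, 241, 239, and 241 in PASCs, with EASCs at 200, 211, and 222. All PASC and EASC samples lay above all SASC samples. On the log2 scale, the change against SASCs was 1.27 ± 0.0554 (SE) in PASCs (edgeR adjusted p = 2.14e-17) and 1.08 ± 0.0553 in EASCs (edgeR adjusted p = 7.22e-16), and without TMM scaling these became 0.94 and 0.68, under 2-fold. Slc7a8, the related exchanger LAT2, which also carries small neutral amino acids, stood at 30.5, 31.2, and 33.9 CPM in SASCs, 2.45, 3.14, and 3.65 in PASCs, while EASCs had 7.33, 6.44, and 8.54. It was therefore high in SASCs, lowest in PASCs, and between the 2 in EASCs, without overlap. By edgeR, the log2 fold change was -3.39 ± 0.131 in PASCs (edgeR adjusted p = 1.23e-18) and -2.1 ± 0.115 in EASCs (edgeR adjusted p = 3.33e-15). As a ratio of RPKM within each sample, which no scaling between samples changes, Slc7a5 to Slc7a8 was 3.73 ± 0.364 in SASCs, 95.1 ± 19.7 in PASCs, and 34.02 ± 4.18 in EASCs (SD, n = 3).

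Slc7a10, the exchanger Asc-1 for alanine, serine, and cysteine, which is known as a surface marker of white adipocytes, stood at 7.79, 7.68, and 9.96 CPM in SASCs, 0.306, 0.299, and 0.424 in PASCs, with EASCs at 1.21, 0.689, and 0.939. SASCs were highest and PASCs lowest, without overlap. Against SASCs, the log2 fold change was -4.63 ± 0.271 in PASCs and -3.15 ± 0.228 in EASCs (edgeR adjusted p = 1.51e-12). The 7 adipocyte markers moved with it against SASCs, with all 5 that were tested downregulated in each comparison. In EASCs against PASCs they did not, since 3 of the 5 were downregulated where Slc7a10 was higher, and their part was not tested. The marker Cidec passed the filter only through groups above EASCs, so its calls in EASCs are descriptions. Slc7a10 overlaps Lrp3 on the other strand, which had 3040 counts in all against 700 of Slc7a10, and because strand use in counting is not stated its values are uncertain.

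Slc7a7, which exports cationic amino acids and is known from macrophages and epithelia, stood at 7.65, 7.98, and 8.59 CPM in SASCs, 11.2, 12.7, and 11.2 in PASCs, while EASCs had 14.6, 18.3, and 16.9. The groups rose in that order without overlap. Its log2 fold change was 1.05 ± 0.113 in EASCs (edgeR adjusted p = 4.66e-09), which became 0.97 without EASCs 2 and 0.65 without TMM scaling. In PASCs it was 0.54 ± 0.116 (edgeR adjusted p = 0.000172). The summed leukocyte markers given above rose in the same order of groups, with 8 of 9 tested markers upregulated in EASCs and 5 in PASCs. Of these, Aif1 passed the filter only through groups above SASCs, so its calls are descriptions. The summed smooth muscle and mesothelial markers rose in that order too, and the part of these cells was not tested.

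Slc7a11, the cystine and glutamate exchanger xCT, stood at 22.3, 19.3, and 24.6 CPM in SASCs, 25.8, 27.0, and 29.3 in PASCs, with EASCs at 29.6, 29.4, and 27.4. PASCs and EASCs lay above SASCs and overlapped each other. The log2 fold change of 0.31 ± 0.0875 in PASCs (edgeR adjusted p = 0.00267) turned to -0.0071 without TMM scaling, and that of 0.39 ± 0.0871 in EASCs (edgeR adjusted p = 0.000288) turned to -0.0072 on log2(FPKM + 1). The heavy chain Slc3a2, known as CD98 or 4F2hc, stood at 187, 200, and 183 CPM in SASCs, 251, 249, and 225 in PASCs, while EASCs had 256, 249, and 242. Its log2 fold change of 0.39 ± 0.0562 in EASCs (edgeR adjusted p = 7.91e-07) turned to -0.0032 without TMM scaling, and it was 0.35 ± 0.0562 in PASCs (edgeR adjusted p = 4.9e-06). Neither gene changed by 2-fold. Among the other members of this group, the heavy chain Slc3a1 had at most 3.65 CPM and the light chain Slc7a6 34.2 to 47.2 CPM, and neither was a DEG.

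The summed level of the 6 tested light chains was 51.9 ± 0.463 RPKM in SASCs, 86.1 ± 0.490 in PASCs, and 79.5 ± 3.104 in EASCs, and without TMM scaling 61.5 ± 1.44, 81.5 ± 5.07, and 71.5 ± 12.4 FPKM. Slc7a5 made up 55.5% ± 2.64 of this sum in SASCs, 80.7% ± 0.698 in PASCs, and 76.8% ± 1.05 in EASCs. Slc7a8 made up 14.96% ± 0.840 in SASCs, 0.872% ± 0.173 in PASCs, and 2.28% ± 0.278 in EASCs. Slc7a10 made up 5.64% ± 0.833, 0.138% ± 0.0288, and 0.414% ± 0.126 in the same order. The heavy chain Slc3a2 stood above the summed light chains in every sample, with a ratio of 1.76 ± 0.0970 in SASCs, 1.35 ± 0.0744 in PASCs, and 1.51 ± 0.101 in EASCs. The light chains of SASCs were thus the most mixed, and Slc7a5 held the largest share in every group.

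**Figure D3:**
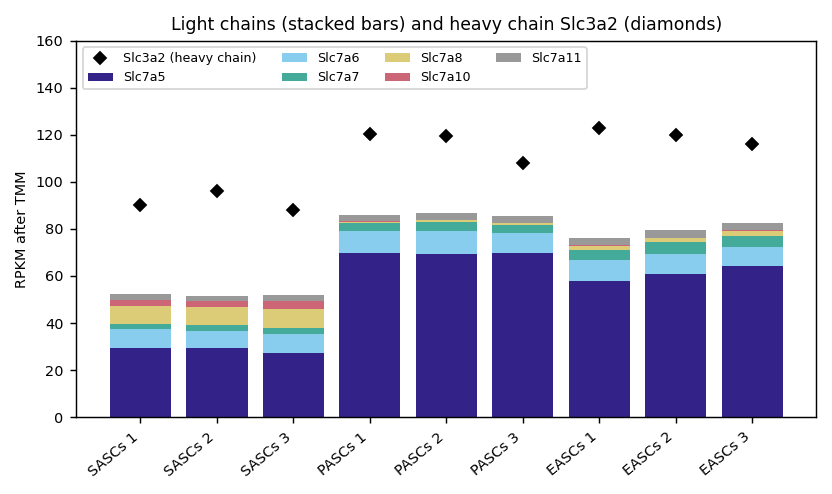
Levels of the 6 tested light chains in each sample as stacked bars and of their main heavy chain Slc3a2 as diamonds, in RPKM after TMM scaling. Slc7a5 forms the largest band in all 9 samples, and the bands of Slc7a8 and Slc7a10 are wide in SASCs only, where they make up 14.96% and 5.64% of the bar.

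Of the cationic carriers, which bring in arginine, lysine, and ornithine, Slc7a1 and Slc7a2 were upregulated in PASCs and in EASCs against SASCs. Slc7a1, the widely expressed carrier CAT-1, stood at 26.1, 23.0, and 24.0 CPM in SASCs, 96.4, 95.3, and 101 in PASCs, with EASCs at 92.0, 94.97, and 107. PASCs and EASCs lay above SASCs and overlapped each other. On the log2 scale, the change against SASCs was 2.00 ± 0.0687 in PASCs (edgeR adjusted p = 9.2e-20) and 2.00 ± 0.0686 in EASCs (edgeR adjusted p = 8.37e-20). Slc7a2, the carrier CAT-2, known for its induction together with arginine-using enzymes in activated macrophages, stood at 7.44, 10.5, and 12.3 CPM in SASCs, 27.2, 27.4, and 31.7 in PASCs, while EASCs had 46.4, 49.5, and 48.2. The groups were ordered SASCs, PASCs, EASCs without overlap. By edgeR, the log2 fold change was 1.53 ± 0.114 in PASCs (edgeR adjusted p = 2.67e-12) and 2.27 ± 0.111 in EASCs (edgeR adjusted p = 2.62e-16). The summed leukocyte markers stood in the same order, as did those of smooth muscle and mesothelium, and the part of these cells was not tested.

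Slc7a3, the carrier CAT-3, known mainly from neurons, had 2, 0, and 0 counts in SASCs, and stood at 1.38, 1.31, and 0.741 CPM in PASCs and 2.14, 2.35, and 2.55 CPM in EASCs. Every sample of PASCs and EASCs lay above SASCs. From the summed counts scaled to depth, EASCs held 85.2 times the level of SASCs, with a 95% counting interval of 23.2 to 710, and PASCs 43.1 times, with an interval of 11.6 to 362. The interval covers counting error only, since reads were not marked by molecule.

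The sodium-coupled neutral carriers of the SLC38 family split in direction. Slc38a1, the glutamine carrier SNAT1, stood at 20.6, 22.8, and 20.3 CPM in SASCs, 104, 113, and 110 in PASCs, with EASCs at 87.8, 89.7, and 94.6. PASCs were highest and SASCs lowest, without overlap. Against SASCs, the log2 fold change was 2.36 ± 0.0654 in PASCs (edgeR adjusted p = 7.47e-22) and 2.1 ± 0.0655 in EASCs (edgeR adjusted p = 1.02e-20). Slc38a2, the carrier SNAT2, stood at 594, 571, and 600 CPM in SASCs, 417, 433, and 494 in PASCs, while EASCs had 316, 317, and 332. SASCs were highest and EASCs lowest, without overlap. Its log2 fold change was -0.39 ± 0.0596 in PASCs (edgeR adjusted p = 1.59e-06) and -0.87 ± 0.0601 in EASCs (edgeR adjusted p = 5.1e-13), under 2-fold, and without TMM scaling that of EASCs was -1.27, past 2-fold. The ratio of Slc38a2 to Slc38a1 in RPKM was 45.1 ± 3.97 in SASCs, 6.65 ± 0.539 in PASCs, and 5.74 ± 0.0719 in EASCs.

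**Figure D4:**
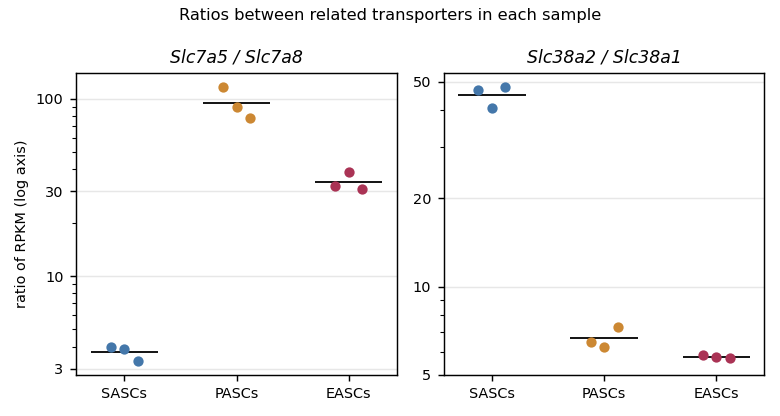
Ratio of the RPKM of 2 related carriers within each sample, on log axes, with 3 points for each group and a line at the mean. Slc7a5 to Slc7a8 was below 4 in all SASCs and above 30 in all PASCs and EASCs, and Slc38a2 to Slc38a1 was above 40 in all SASCs and below 8 in all PASCs and EASCs.

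Slc38a4, the carrier SNAT4 of neutral and cationic amino acids, was the 1 member that lay over 2-fold above SASCs in 1 group and over 2-fold below them in the other. It stood at 2.29, 2.59, and 1.12 CPM in SASCs, 5.05, 4.82, and 3.02 in PASCs, with EASCs at 0.377, 0.811, and 0.224. The groups did not overlap, and PASCs were highest and EASCs lowest. On the log2 scale, the change against SASCs was -2.08 ± 0.386 in EASCs. In PASCs it was 1.09 ± 0.289 (edgeR adjusted p = 0.00157), and the fold change fell under 2 without SASCs 3 (0.83), without PASCs 1 (0.97), or without TMM scaling (0.75). EASCs differed from PASCs by -3.17 ± 0.360. Slc38a1, Slc38a2, and Slc38a4 lie beside each other on chromosome 7 of rn6, at chr7:137970555-138040103, chr7:138088654-138100869, and chr7:138459576-138512952, so neighbours of 1 cluster moved in different directions.

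Slc38a6, a carrier of the same family expressed in brain and other tissues, stood at 26.0, 23.9, and 27.9 CPM in SASCs, 6.96, 6.43, and 5.93 in PASCs, while EASCs had 7.58, 6.81, and 7.78. SASCs lay above both other groups, which overlapped. By edgeR, the log2 fold change was -2.002 ± 0.108 in PASCs (edgeR adjusted p = 2.45e-15) and -1.81 ± 0.106 in EASCs (edgeR adjusted p = 1.47e-14). A gene on the other strand, LOC688981, overlaps it with 402 counts against 2872, and reads of the 2 cannot be told apart. Slc38a9, the lysosomal arginine sensor of the mTORC1 pathway, stood at 14.1, 14.1, and 11.9 CPM in SASCs, 11.8, 13.7, and 10.96 in PASCs, with EASCs at 12.3, 14.8, and 15.03, and all groups overlapped. The log2 fold change was -0.13 in PASCs (95% interval -0.37 to 0.10, edgeR adjusted p = 0.298) and 0.07 in EASCs (95% interval -0.16 to 0.30, edgeR adjusted p = 0.587). Slc38a7, a lysosomal glutamine carrier, and Slc38a10 differed by less than 2-fold, with 31.1 to 57.9 and 182 to 256 CPM, and without TMM scaling Slc38a7 passed 2-fold (-1.01 in EASCs, -1.14 in PASCs).

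Among the SLC1 carriers, the glutamine exchanger Slc1a5 stood at 115, 110, and 115 CPM in SASCs, 115, 108, and 114 in PASCs, while EASCs had 87.7, 91.1, and 94.5. EASCs lay below the other 2 groups, which overlapped. Against SASCs, the log2 fold change was -0.32 ± 0.0548 in EASCs (edgeR adjusted p = 1.21e-05) and -0.02 in PASCs (95% interval -0.13 to 0.09, edgeR adjusted p = 0.794). Slc1a3, the glutamate and aspartate carrier GLAST, stood at 16.7, 17.7, and 16.9 CPM in SASCs, 8.65, 6.92, and 9.21 in PASCs, with EASCs at 17.9, 21.5, and 18.5. PASCs were lowest and did not overlap the other groups. Its log2 fold change was -1.06 ± 0.113 in PASCs (edgeR adjusted p = 3.54e-09), which became -0.94 without PASCs 2, and 0.18 in EASCs (95% interval -0.04 to 0.39, edgeR adjusted p = 0.131). EASCs exceeded PASCs by a log2 fold change of 1.24 ± 0.112 (edgeR adjusted p = 8.7e-10).

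Slc1a7, the glutamate carrier EAAT5, known mainly from retina, stood at 4.28, 3.61, and 3.17 CPM in SASCs, 0, 0.336, and 0.424 in PASCs, while EASCs had 0.963, 0.730, and 0.895. SASCs were highest and PASCs lowest, without overlap, and 1 PASC sample had 0 counts. On the log2 scale, the change against SASCs was -3.92 ± 0.428 in PASCs and -2.1 ± 0.347 in EASCs (edgeR adjusted p = 6.33e-06). Slc1a4, the alanine and serine exchanger whose promoter is printed above, had 54.6 to 85.5 CPM and differed by less than 2-fold. Slc1a1 had at most 0.521 CPM, and its place among the downregulated members in PASCs rests on 3 to 15 counts in a sample and was lost with DESeq2 and without any 1 of the 9 samples.

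Of the SLC6 carriers, the taurine carrier Slc6a6 had the highest level in SASCs, at 25.6 ± 1.92 RPKM beside 16.8 ± 0.548 of the creatine carrier Slc6a8. Slc6a6 stood at 150, 161, and 175 CPM, against 31.2, 34.3, and 35.3 in PASCs and 46.6, 41.7, and 47.8 in EASCs. SASCs were highest and PASCs lowest, without overlap. By edgeR, the log2 fold change was -2.27 ± 0.0696 in PASCs (edgeR adjusted p = 7.25e-21) and -1.84 ± 0.0677 in EASCs (edgeR adjusted p = 4.44e-19). Slc6a6 made up 5.21% ± 0.392 of the summed RPKM of all members in SASCs, 1.01% ± 0.0676 in PASCs, and 1.47% ± 0.0970 in EASCs. The creatine carrier Slc6a8 had 64.1 to 68.3 CPM in SASCs and 31.9 to 36.4 in the other groups, a difference just under 2-fold that passed 2-fold without TMM scaling (-1.33 in EASCs, -1.28 in PASCs).

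Slc6a9, the glycine carrier GlyT1, stood at 17.3, 19.3, and 18.6 CPM in SASCs, 48.5, 44.2, and 46.5 in PASCs, with EASCs at 38.4, 39.8, and 45.0. PASCs and EASCs lay above SASCs and overlapped each other. Against SASCs, the log2 fold change was 1.34 ± 0.0783 in PASCs (edgeR adjusted p = 1.58e-14) and 1.16 ± 0.0787 in EASCs (edgeR adjusted p = 3.86e-13), the second of which became 0.75 without TMM scaling. Ccdc24 on the other strand overlaps Slc6a9 with 357 counts against 7564. Slc6a7, the proline carrier of neurons, stood at 0.973, 1.61, and 1.85 CPM in SASCs, 0.230, 0.224, and 0.530 in PASCs, while EASCs had 0.377, 0.446, and 0.492. SASCs lay above both other groups, which overlapped. Its log2 fold change was -2.21 ± 0.455 in PASCs and -1.73 ± 0.430 in EASCs.

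Slc6a17, a vesicle carrier of neutral amino acids known from neurons, stood at 2.57, 2.72, and 2.54 CPM in SASCs, 0.765, 1.53, and 1.43 in PASCs, with EASCs at 3.52, 3.0, and 3.31. PASCs were lowest, without overlap. On the log2 scale, the change against SASCs was -1.08 ± 0.262 in PASCs (edgeR adjusted p = 0.000695), which became -0.81 without PASCs 1, and 0.33 in EASCs (95% interval -0.15 to 0.81, edgeR adjusted p = 0.217). The serotonin carrier Slc6a4, the 1 monoamine carrier that was tested, had 2 to 6 counts in SASCs and at most 1.09 CPM in the other groups, each of which stood above SASCs.

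Within the facilitative SLC43 family, Slc43a3, known today as a carrier of purine nucleobases, stood at 11.4, 12.2, and 10.6 CPM in SASCs, 1.07, 0.710, and 0.741 in PASCs, while EASCs had 2.22, 4.22, and 3.49. SASCs were highest and PASCs lowest, without overlap. By edgeR, the log2 fold change was -3.74 ± 0.221 in PASCs (edgeR adjusted p = 1.88e-14) and -1.79 ± 0.180 in EASCs (edgeR adjusted p = 1.28e-09). Slc43a1, the leucine carrier LAT3, stood at 14.6, 17.8, and 12.8 CPM in SASCs, 7.69, 6.50, and 8.42 in PASCs, with EASCs at 9.04, 8.63, and 9.66. SASCs were highest and PASCs lowest, without overlap. Against SASCs, the log2 fold change was -1.01 ± 0.128 in PASCs (edgeR adjusted p = 8.77e-08), which became -0.88 without SASCs 2 and -0.91 without PASCs 2, and -0.73 ± 0.125 in EASCs (edgeR adjusted p = 1.08e-05). Slc43a2, or LAT4, had 9.72 to 20.7 CPM, differed by less than 2-fold, and shares its place with Scarf1 on the same strand, which had 520 counts against 3043. The proton-coupled carriers Slc36a1 and Slc36a4, which export amino acids from lysosomes or endosomes, had 6.45 to 9.62 and 39.4 to 45.5 CPM and did not pass the test in any comparison.

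EASCs and PASCs differed less from each other. In EASCs compared with PASCs, 7 members were upregulated (20.6%), beside 5.19% of all genes, and Slc38a4 alone was downregulated (2.94%), beside 2.2% of all genes. These counts include Slc1a7, Slc7a10, and Slc38a4, which passed the filter only through groups in which they were higher, and apart from such members 5 of 29 were DEGs, each of them upregulated. At any fold, 17 members (50%) passed the adjusted p, beside 30.7% of all genes. The 7 upregulated members were Slc1a3, Slc1a7, Slc7a8, Slc7a10, Slc7a3, Slc6a17, and Slc43a3. Its log2 fold change was 1.29 ± 0.146 for Slc7a8 (edgeR adjusted p = 6.33e-08), 1.96 ± 0.250 for Slc43a3 (edgeR adjusted p = 4.65e-07), and 1.41 ± 0.257 for Slc6a17 (edgeR adjusted p = 9.38e-05). For 4 of these 7 genes, Slc1a7, Slc7a8, Slc7a10, and Slc43a3, EASCs lay between PASCs and SASCs. Slc1a7 differed by 1.83 ± 0.507 and Slc7a10 by 1.48 ± 0.358, each at under 1.3 CPM in both groups. Slc7a3 differed by 1.01 ± 0.337 (edgeR adjusted p = 0.0232), and this call was lost without PASCs 3 (0.80), without EASCs 2 (edgeR adjusted p = 0.0661), without EASCs 3 (0.95), or without TMM scaling (0.95). Slc7a1 was the closest, with a log2 fold change of 0.00 (95% interval -0.13 to 0.13, edgeR adjusted p = 0.982).

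The other 27 members were not tested. Of these, 9 had 0 counts in every sample, namely Slc7a13, Slc6a14, Slc6a18, Slc6a19, Slc6a11, Slc6a13, Slc6a2, Slc6a3, and Slc38a11, which include carriers of kidney and gut and the noradrenaline and dopamine carriers. A count of 0 allows up to 3 counts, or 0.104 to 0.159 CPM by sample. The other 18 had 1 to 47 counts over all samples together and at most 11 in any sample. These included Slc1a2, Slc1a6, Slc7a9, Slc7a12, Slc7a15, Slc7a4, Slc7a14, Slc6a5, Slc6a15, Slc6a16, Slc6a20, Slc6a12, Slc36a2, Slc36a3, Slc38a3, Slc38a5, and Slc38a8. The filter left them out of the test. The glutamine carrier Slc38a5 had 19 counts in EASCs, 3 in SASCs, and 0 in PASCs, and its ratio of EASCs to SASCs after scaling was 6.50, with a 95% counting interval of 1.91 to 34.3. Slc6a12, a carrier of betaine and GABA, had 12 counts in EASCs, 10 in PASCs, and 0 in SASCs. With no filter, edgeR called Slc6a12 in EASCs and in PASCs and Slc7a4 in EASCs against SASCs, and Slc38a5 in EASCs against PASCs.

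Genes that act with the carriers were described from 6 lists. In the amino acid response list, which holds the eIF2 kinases, ATF4, and genes that it is known to induce, EASCs had 12 upregulated (41.4%) and 3 downregulated (10.3%) genes of 29 tested, and PASCs had 12 (41.4%) and 1 (3.45%). These and the shares of the other lists stand beside the 13.6% and 14.2% of all genes in EASCs, and 12% and 14.9% in PASCs. The median log2 fold change of the list was 0.89 in EASCs and 0.94 in PASCs. Phgdh, the first enzyme of serine synthesis, stood at 12.5 ± 1.64 CPM in SASCs, 75.2 ± 3.202 in PASCs, and 88.2 ± 1.05 in EASCs (SD, n = 3). Mthfd2, a mitochondrial folate enzyme, changed by 2.78 ± 0.0698 in PASCs (edgeR adjusted p = 8.85e-23) and 2.64 ± 0.0698 in EASCs (edgeR adjusted p = 2.34e-22). Chac1, which degrades glutathione, changed by 2.59 and 2.40 in the same order, the pseudokinase Trib3 by 2.37 and 2.27, and Cth, which makes cysteine, by 2.55 and 2.08. Atf4 itself stood at 255 ± 11.02 CPM in SASCs, 494 ± 5.28 in PASCs, and 481 ± 15.2 in EASCs, just under 2-fold, with a log2 fold change of 0.95 ± 0.0538 in PASCs (edgeR adjusted p = 7.09e-15) and 0.91 ± 0.0538 in EASCs (edgeR adjusted p = 1.57e-14). Chosen after their values were seen, the downregulated genes of this list were Eif2ak4, the kinase that senses uncharged tRNA, Stc2, and Atf3 in EASCs, and Atf3 in PASCs.

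Of 23 aminoacyl-tRNA synthetases, which load amino acids onto tRNA, 2 were upregulated in EASCs (8.7%, beside 13.6% of all genes) and 4 in PASCs (17.4%, beside 12%), and none was downregulated. At any fold, 22 (95.7%) passed the edgeR adjusted p in each comparison, beside 69.7% and 69.2% of all genes. Their median log2 fold change was 0.63 in EASCs and 0.73 in PASCs. Vars changed by 1.41 in EASCs and 1.40 in PASCs, Gars by 1.13 and 1.17, Cars by 0.90 and 1.25, and Nars by 1.00 and 1.12. Without TMM scaling, 1 synthetase (4.35%) was a DEG in each comparison, beside 32.3% of all genes in EASCs and 30% in PASCs.

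In the list of mTORC1 amino acid sensing, EASCs had 2 upregulated (5.56%) and 7 downregulated (19.4%) genes of 36 tested, and PASCs had 1 (2.78%) and 6 (16.7%). The median was -0.22 and -0.20. Rragd, a Rag GTPase, fell from 6.12 ± 0.422 CPM in SASCs to 0.577 ± 0.428 in PASCs and 0.932 ± 0.0472 in EASCs. Its log2 fold change was -3.49 ± 0.319 in PASCs and -2.71 ± 0.292 in EASCs (edgeR adjusted p = 4.66e-09). In PASCs Rragd fell under the cut-off of the filter in part of the samples. That change is therefore a description, given with no p, and is among the counts above. Flcn, which acts on the Rag GTPases, changed by -1.60 in PASCs and -1.68 in EASCs, and its partners Fnip1 and Fnip2 by -1.40 and -2.14 in PASCs and -1.43 and -1.77 in EASCs. Wdr59, of the GATOR2 complex, changed by -1.41 and -1.57. Chosen after their values were seen, the upregulated genes were Sec13, which also serves vesicle coats and nuclear pores, in both depots, and the leucine sensor Sesn2 in EASCs.

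Among enzymes of glutamine, glutamate, proline, and glutathione, EASCs had 6 upregulated (24%) and 4 downregulated (16%) genes of 25 tested, and PASCs had 5 (20%) and 4 (16%), with medians of -0.045 and 0.30. Gpt2, which passes nitrogen between glutamate and alanine, changed by 2.11 in EASCs and 2.17 in PASCs, and Pycr1, of proline synthesis, by 1.20 and 1.68. Prodh, which degrades proline, changed by -2.86 and -2.97, and Oplah, which recovers glutamate from 5-oxoproline, by -1.60 and -1.82. Ggt5, which cleaves glutathione derivatives outside the cell, stood at 37.9 ± 3.89 CPM in SASCs, 24.1 ± 3.06 in PASCs, and 2.86 ± 0.295 in EASCs, and was the 1 DEG of this list in EASCs against PASCs (-3.07 ± 0.128, edgeR adjusted p = 7.61e-17).

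Among enzymes that use or make other carrier substrates, EASCs had 7 upregulated (25%) and 6 downregulated (21.4%) genes of 28 tested, and PASCs had 7 (25%) and 7 (25%), with medians of -0.072 and -0.021. Cdo1, an enzyme of taurine synthesis from cysteine, stood at 83.7 ± 0.392 CPM in SASCs, 8.79 ± 0.869 in PASCs, and 8.34 ± 1.20 in EASCs, with a log2 fold change of -3.25 ± 0.0895 in PASCs (edgeR adjusted p = 6.57e-22) and -3.33 ± 0.0901 in EASCs (edgeR adjusted p = 3.87e-22). The taurine carrier Slc6a6 was lower in the same groups. Ckb, a creatine kinase, stood at 10.2 ± 0.572, 53.6 ± 3.36, and 109 ± 2.40 CPM in SASCs, PASCs, and EASCs, while the creatine carrier Slc6a8 was lower by just under 2-fold (past 2-fold without TMM scaling). Nos3, the nitric oxide synthase of endothelium, stood at 6.31 ± 0.418, 0.558 ± 0.240, and 3.83 ± 1.12 CPM. The summed endothelial markers stood in the same order, but Tek was lowest in SASCs, and their part was not tested. In EASCs against PASCs, 3 genes of this list were upregulated (10.7%, beside 5.19% of all genes). None of the amino acid response, mTORC1, and synthetase lists was a DEG there, while 13 (44.8%), 5 (13.9%), and 4 (17.4%) genes of those lists passed the edgeR adjusted p at any fold, beside 30.7% of all genes.

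Of 18 tested amino acid transporters of other families, 3 were upregulated (16.7%) and 2 downregulated (11.1%) in EASCs, and 2 (11.1%) and 1 (5.56%) in PASCs, shares near or below those of all genes, with a median of -0.15 in each. Slc25a13, the mitochondrial aspartate and glutamate carrier citrin, stood at 1.95 ± 0.148 CPM in SASCs, 12.4 ± 0.550 in PASCs, and 16.3 ± 0.660 in EASCs. The mitochondrial ornithine carrier Slc25a15 changed by 1.58 in PASCs and 1.96 in EASCs, and the aromatic amino acid carrier Slc16a10 by 1.29 in EASCs at 1.36 ± 0.301 CPM. Sfxn2, of the mitochondrial sideroflexins, changed by -2.20 in PASCs and -2.25 in EASCs, and Pqlc2, which exports cationic amino acids from lysosomes, by -1.08 in EASCs. Without TMM scaling, 6 genes of this list (33.3%) were DEGs in PASCs, beside 30% of all genes.

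**Figure D5:**
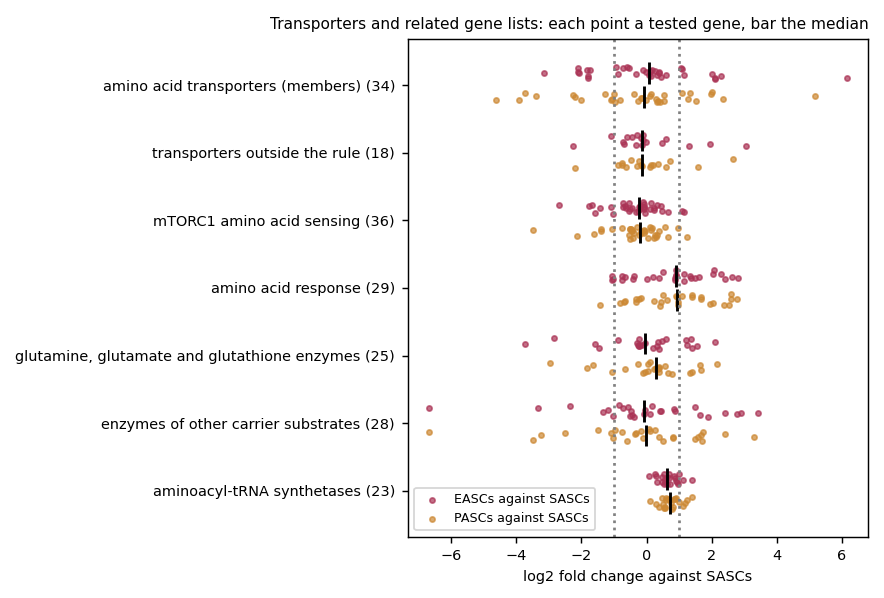
Log2 fold change against SASCs of each tested gene of the 34 amino acid transporters and of 6 related lists, with the number of tested genes in brackets, the median as a black bar, and the 2-fold thresholds as dotted lines. The amino acid response list and the aminoacyl-tRNA synthetases are shifted to the right in both comparisons, with medians of 0.63 to 0.94, while the transporters spread to both sides around medians near 0.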

How the data were processed

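RNA-Seq was done on 3 SASC, 3 PASC, and 3 EASC samples. The authors trimmed paired-end reads of 150 bp with cutadapt and FastX-Toolkit, aligned them to rn6 with TopHat per their methods (the submitters' processing notes list TopHat2 and rn5, and contig names in the table are those of rn6), and deposited raw counts per gene, not normalized. The counting tool and strand use are not given in the sources used here.

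Counts were scaled by TMM (factors 0.740 to 1.23) and filtered with filterByExpr in edgeR 4.0.16 (R 4.3.3). A quasi-likelihood model held all 9 samples in 3 groups with no block term. P-values were adjusted by Benjamini-Hochberg over all 14770 tested genes within each comparison. The code was tested on simulated data. CPM and RPKM were computed from the counts with TMM scaling and the Length column, and FPKM likewise with no TMM scaling. Intervals are at 95%, and counting intervals cover counting error only. Replicates differed by at least 6.23 chi-square units per degree of freedom, so none was a duplicate. Alternatives were DESeq2 1.42.0, no TMM, no filter, only the groups compared, a replicate block, limma 3.58.1 on log2(FPKM + 1) and log2(FPKM + 0.1), each sample left out, and, chosen after seeing the data, no ribosomal RNA genes.

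The transporter families, their roles, and the lists were chosen with earlier results of these data known. Values in every sample are given for members that were DEGs in any comparison at a mean of 1 CPM or more, and for Slc3a2, Slc7a5, Slc7a11, Slc1a5, Slc38a2, Slc6a6, and Slc38a9. From each list at most 5 DEGs with the largest change at 1 CPM or more are named, and Atf4. Some genes that meet these rules are not reported here.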

Additional observations from a re-analysis of the deposited data

How the results depend on the processing

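DESeq2, no filter, the groups compared alone, the replicate block, and leaving out ribosomal RNA genes moved no count of transporter DEGs by over 1.5 times. With the replicate block, 16 members were DEGs in EASCs and 18 in PASCs against SASCs. Same-numbered samples did not deviate together (correlations -0.025 to 0.059, beside -0.100 to 0.067 for other pairs). With 3 samples in each group, this cannot show whether same-numbered samples share a rat or a batch. Leaving out each sample in turn gave 15 to 17 DEGs in EASCs (7 to 8 upregulated, 8 to 9 downregulated), 16 to 19 in PASCs (7 to 8 and 8 to 11), and 7 to 8 in EASCs against PASCs (6 to 7, and 1 to 1). Without TMM scaling, 5 members were upregulated in EASCs, 1 synthetase was a DEG in EASCs and 1 in PASCs, and 6 transporters outside the families were DEGs in PASCs. Limma on log2(FPKM + 1) gave 3 upregulated members in EASCs, 2 in PASCs with 12 DEGs in all, and 0 in EASCs against PASCs (0 upregulated, 0 downregulated), and log2(FPKM + 0.1) gave 4, 4, and 5 (4 upregulated). FPKM carries no TMM scaling, and a pseudocount of 1 shrinks changes of genes at low FPKM by construction. Slc3a2 in EASCs turned to -0.0032 without TMM scaling and -0.019 with either pseudocount. Slc7a11 turned to -0.0072 (pseudocount 1) and -0.014 (pseudocount 0.1) in EASCs, and in PASCs to -0.0071 without TMM scaling, -0.0049 (pseudocount 1), and -0.0069 (pseudocount 0.1). Of 1172 values of the 23 members given by sample, 46 fell under the thresholds and 5 passed them. Sign changes were 8 among 952 values whose edgeR adjusted p had passed, and 24 among the 220 that had not. Of 558 values of the other 11 tested members, 17 fell under and 11 passed, with 6 sign changes among 270 that had passed (Slc38a10 in EASCs and Slc7a6 in PASCs) and 35 among 288 that had not. Without TMM scaling, differences in EASCs that had not passed turned negative for Slc1a3 (-0.21), Slc6a17 (-0.08), Slc38a9 (-0.32), Slc7a6 (-0.26), and Slc36a4 (-0.28), as in PASCs for Slc36a4 (-0.22) and Slc3a1 (-0.2). Depth limits the 27 untested members and those near 1 CPM.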
